A study of Mus musculus with 6 samples.

Results

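The genes of the cyclin-dependent kinase (CDK) inhibitors were examined in C2C12 cells, a mouse myoblast line, after differentiation into myotubes and during growth as myoblasts. The members were taken by symbol from a table of raw read counts: Cdkn1a, Cdkn1b and Cdkn1c of the CIP/KIP family, Cdkn2a, Cdkn2b, Cdkn2c and Cdkn2d of the INK4 family, and Cdkn3, a phosphatase that acts on CDKs. All 8 are among the 27179 genes of the table, and 6 of them had enough counts to be tested among 12800 genes. The 3 myotube libraries came from cells kept at 100% confluence for 3 days and then for 5 days in medium with 2% horse serum and an insulin, transferrin, selenium and ethanolamine supplement. The 3 myoblast libraries came from sub-confluent cells in 10% fetal bovine serum, and both groups had high-glucose DMEM with 4 mM glutamine. Serum, supplement, cell density and differentiation therefore differed together and cannot be told apart. The labels speak of triplicates without naming separate cultures. The p-values therefore reflect the spread between these libraries alone, which may be technical. The line is a single immortalised one, and myotube cultures can also hold unfused cells.

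CIP/KIP proteins bind cyclin-CDK complexes and block those that drive DNA synthesis, while INK4 proteins bind Cdk4 and Cdk6 alone and keep D-type cyclins off them. Both routes keep the retinoblastoma family of pocket proteins able to hold back E2F target genes. Leaving the cell cycle for good is a step of muscle differentiation, and Cdkn1a and Cdkn1c are known for acting together in it in the mouse embryo. The Cdkn2a locus codes for p16Ink4a and, from another first exon and reading frame, p19Arf, which protects p53 from Mdm2. It is a locus that cultured cells often lose or silence.

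Library totals ranged from 7370169 to 8339589 counts in myotubes and from 10076945 to 11723881 in myoblasts. All 7 myotube markers rose, with summed values of 14144 to 14823 CPM (read counts scaled to a common library size, after TMM) in myotubes and 78.2 to 98.4 in myoblasts. All 12 proliferation markers fell, with a median log2 change of −3.65. Of 5 markers of reserve or quiescent cells 4 were tested and 3 rose, with summed values of 291 to 319 CPM in myotubes and 132 to 141 CPM in myoblasts, and Calcr was under 1 CPM in both groups. Of the 6 fibroblast and adipogenic markers 5, Thy1, Tcf21, Adipoq, Plin1 and Fabp4, were under 1 CPM in both groups, as were the osteoblast markers Sp7, Bglap and Ibsp. In each list the 1 remaining gene, Pdgfra and Runx2, was tested and fell. The fibroblast and adipogenic markers summed to 7.45 to 9.28 CPM in myotubes and 17.5 to 20.3 CPM in myoblasts. The 4 osteoblast markers summed to 38.4 to 41.8 CPM in myotubes and 80.4 to 84.4 CPM in myoblasts. The part of reserve cells in the results below was not tested. Bulk RNA cannot tell fewer cells of a kind from less RNA per cell.

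In edgeR's quasi-likelihood test, adjusted by Benjamini-Hochberg over all genes, 4 of the 6 tested members rose and 2 fell, where 40.2% of all genes tested rose and 39.2% fell. Against a change of more than 2-fold, 2 members rose and 1 fell, against 12.4% and 9.2% of all genes. The groups did not overlap in any of the 6 members, and did not overlap in 80.5% of all genes tested. With so many genes called, these counts are near the background for so few members, and it is the size of the changes that sets the members apart from each other. Cdkn1a and Cdkn1c lay far above the other CIP/KIP and INK4 genes in change, with 566 and 515 of the 12800 genes changing more in the upward direction. Cdkn3 lay at the other end, with 151 genes changing further downward.

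**Figure D1:**
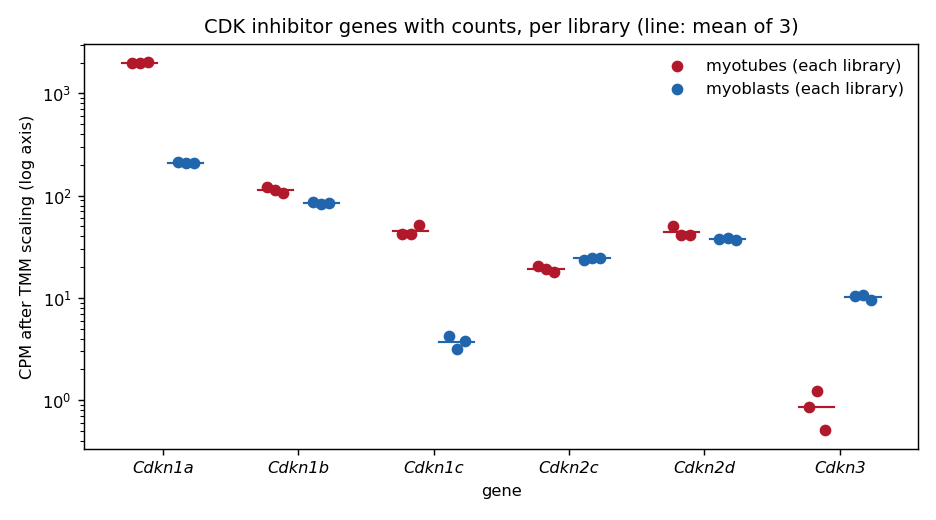
CPM after TMM scaling (log axis) of the 6 CDK inhibitor genes with counts, with 1 point per library and a line at the mean of 3, myotubes in red and myoblasts in blue. Cdkn1a and Cdkn1c in myotubes lie about an axis decade above myoblasts, Cdkn3 lies as far below, and the values of Cdkn1b, Cdkn2c and Cdkn2d lie close together.

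Cdkn1a codes for p21Cip1, an inhibitor of cyclin E and cyclin A complexes that also binds PCNA. It lies on chromosome 17 at 29090979 to 29100722 (forward strand, GRCm38.p6, Entrez gene 12575). RefSeq gives it a pair of starts, 2790 bases apart, and gene-level counts do not say which was used. The 250 bases before each are shown because Cdkn1a is the most abundant member and one of the 2 that rose past 2-fold.
Cdkn1a first start, chr17:29090729-29090978, forward strand: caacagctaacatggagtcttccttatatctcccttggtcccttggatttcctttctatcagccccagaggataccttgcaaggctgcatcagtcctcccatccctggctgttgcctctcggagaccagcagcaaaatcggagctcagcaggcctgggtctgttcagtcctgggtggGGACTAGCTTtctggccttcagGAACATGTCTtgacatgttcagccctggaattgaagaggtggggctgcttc
Cdkn1a second start, chr17:29093519-29093768, forward strand: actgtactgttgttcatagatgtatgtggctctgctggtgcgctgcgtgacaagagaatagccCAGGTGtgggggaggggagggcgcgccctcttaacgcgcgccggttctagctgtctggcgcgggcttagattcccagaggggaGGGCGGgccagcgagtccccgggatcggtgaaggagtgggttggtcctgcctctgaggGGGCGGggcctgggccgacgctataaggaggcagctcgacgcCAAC
Capitals in the first mark a pair of exact matches to the p53 half-site letters, GGACTAGCTT and GAACATGTCT. They begin at −73 and −51 from the start with 12 bases between them. Half-sites with a mismatch were not sought. The letters tgacatgttc, directly after GAACATGTCT, differ from a half-site at their first base only and are unmarked. A pair of exact matches, with at most 13 bases between the half-sites, was in 24 of the 32851 mouse promoter windows of RefSeq (0.0731%). Capitals in the second mark an E-box (CANNTG) at −187, GC boxes (GGGCGG) at −104 and −46, and the first letters of an E-box that begins at −4 and runs past the start. An E-box was in 72.3% of the windows and a GC box in 35.7%, each searched on both strands from 250 bases before to 50 after the start. A match of letters describes the sequence and is no proof of a bound site.

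Cdkn1a had 13850, 14484 and 15912 counts in myotube libraries 1, 2 and 3, and 2364, 2543 and 2192 in myoblast libraries. The 3 myotube libraries stood well above all myoblast libraries and were close to each other. After scaling, its mean was 1982 ± 25.3 CPM in myotubes and 209 ± 3.36 CPM in myoblasts (SD, n = 3 each), a 9.50-fold rise (log2 change 3.25, SE 0.04, adjusted p = 8.11e-29 in edgeR). Per kilobase of exon, it had rank 41 among the 21572 genes with a length in myotubes and rank 624 in myoblasts. A transcript on the opposite strand, AC167363.2, overlaps 7.7% of its exon bases, and whether strand was used in counting is not stated by the labels or file header.

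Cdkn1b codes for p27Kip1, an inhibitor of cyclin E and Cdk2 that gathers in resting cells largely through protein stability. It lies on chromosome 6 at 134920401 to 134925525 (forward strand, Entrez gene 12576). Its counts were 857, 831 and 845 in myotubes, against 970, 1027 and 902 in myoblasts, where libraries were deeper. In CPM the values were 122, 112 and 107 in myotubes, against 87.2, 83.5 and 85.0 in myoblasts. All myotube values lay above all myoblast values, and the myotube libraries spread more widely. The rise was 1.33-fold (log2 change 0.42, SE 0.05, adjusted p = 1.09e-07 in edgeR) and did not pass the test against 2-fold.

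Cdkn1c codes for p57Kip2, the imprinted CIP/KIP inhibitor, and lies on chromosome 7 at 143458339 to 143461059 (reverse strand, Entrez gene 12577). It had 296, 312 and 407 counts in myotubes and only 47, 39 and 40 in myoblasts. In CPM that is 42.2, 42.2 and 51.4 in myotubes, against 4.22, 3.17 and 3.77 in myoblasts. Its log2 change was 3.61 (SE 0.12, adjusted p = 4.93e-19 in edgeR), and the ratio of summed scaled counts was 12.3, with an exact 95% counting interval of 10.2 to 14.9. The third myotube library was the highest, and no myotube library came near the myoblast values. The antisense gene Gm44732 overlaps 30.7% of its exon bases, so part of its counts may belong to that gene and its level is uncertain.

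Within the CIP/KIP family the make-up differed between groups. Per kilobase of joined exons (RPKM, CPM divided by exon length in kilobases), Cdkn1a supplied 92.1, 92.4 and 92.1% of the summed family level in the myotube libraries, against 73.8, 74.5 and 73.9% in the myoblast libraries. Cdkn1b supplied 4.13 ± 0.316% in myotubes and 23.6 ± 0.125% in myoblasts. Cdkn1c supplied 3.67 ± 0.378% in myotubes and 2.30 ± 0.286% in myoblasts (SD, n = 3 each). With the length of the longest transcript in place of all exons, the Cdkn1a share was 95.1% in myotubes and 82.9% in myoblasts. The family sum was 605 ± 8.67 RPKM in myotubes and 79.2 ± 1.55 RPKM in myoblasts.

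**Figure D2:**
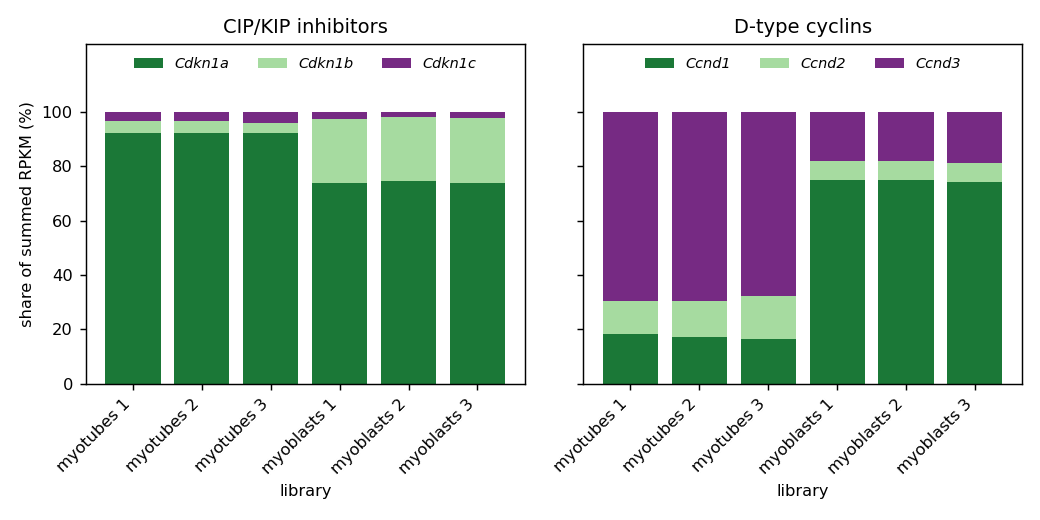
Share of the summed RPKM (%, bars from 0 to 100) of the 3 CIP/KIP inhibitors (left) and the 3 D-type cyclins (right) in each library, myotubes left of myoblasts. Cdkn1a fills about 92% of the CIP/KIP bar in every myotube library and about 74% in every myoblast library, while the leading D-type cyclin is Ccnd3 in myotubes and Ccnd1 in myoblasts.

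Ratios of member pairs within a library do not depend on the scaling between libraries. The ratios below are of RPKM with joined exons. Cdkn1a over Cdkn1b was 20.7, 22.3 and 24.1 in myotubes, against 3.12, 3.17 and 3.11 in myoblasts, a log2 difference of 2.83. Cdkn1a over Cdkn1c was 26.9, 26.6 and 22.4 in myotubes, against 28.9, 37.4 and 31.4 in myoblasts, a log2 difference of −0.36. Cdkn2c over Cdkn2d was 0.238, 0.269 and 0.257 in myotubes, against 0.366, 0.373 and 0.390 in myoblasts, a log2 difference of −0.57. The groups did not overlap for any of these 3 ratios, which were chosen with the values known. The exact permutation test, two-sided, gave p = 0.1 for each, also after adjustment over the 3, which is the smallest p that 3 libraries against 3 allow.

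Of the 4 INK4 genes, 2 had counts. Cdkn2d codes for p19Ink4d and lies on chromosome 9 at 21288459 to 21291421 (reverse strand, Entrez gene 12581). Its level was 50.2, 41.3 and 40.9 CPM in myotubes, against 37.8, 38.3 and 37.2 CPM in myoblasts. All myotube libraries were above all myoblast libraries, but libraries 2 and 3 by little. The 1.16-fold rise (log2 change 0.22, SE 0.08, adjusted p = 0.0101 in edgeR) was lost without myotube library 1 (log2 change 0.12, adjusted p = 0.150) and with scaling by total counts (log2 change 0.07, adjusted p = 0.374). The adjusted p ranged from 0.00272 to 0.374 over 13 alternatives, and the call held in 11.

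Cdkn2c codes for p18Ink4c and lies on chromosome 4 at 109660876 to 109666756 (reverse strand, Entrez gene 12580). It had 143, 140 and 142 counts in myotubes, against 263, 300 and 263 in myoblasts. Scaled, these were 20.4, 18.9 and 17.9 CPM in myotubes, against 23.6, 24.4 and 24.8 CPM in myoblasts. Every myotube library lay below every myoblast library, and the level fell to 78.6% of that in myoblasts (log2 change −0.35, SE 0.09, adjusted p = 0.00122 in edgeR). The fall did not pass the test against 2-fold. Together the 2 detected INK4 genes summed to 35.2 ± 3.78 RPKM in myotubes and 33.0 ± 0.323 RPKM in myoblasts (SD, n = 3 each), with the myotube range spanning the myoblast values.

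Cdkn2a and Cdkn2b had 0 counts in each of the 6 libraries, of 23505611 counts in the myotube group and 32398012 in the myoblast group. Cdkn2b codes for p15Ink4b, the INK4 inhibitor known for its response to TGF-beta. The limit that a count of 0 allows, 3 counts over a group, is 0.134 CPM in myotubes and 0.0881 CPM in myoblasts. Per kilobase of exon this is 0.115 RPKM in myotubes and 0.0752 RPKM in myoblasts for Cdkn2a, and 0.0967 RPKM in myotubes and 0.0634 RPKM in myoblasts for Cdkn2b. These limits cover counting error only. One gene row holds both p16Ink4a and p19Arf, and a row at 0 holds neither. Every library was at 0 for 32.1% of all genes listed.

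These genes lie side by side on the reverse strand of chromosome 4, Cdkn2a (Entrez gene 12578) at 89274473 to 89294619 and Cdkn2b (Entrez gene 12579) at 89306289 to 89311032. The nearest protein-coding gene of the table at lower coordinates is Mtap, the methylthioadenosine salvage enzyme, 93.4 kb from Cdkn2a. Mtap had 408, 439 and 495 counts in myotubes, against 2135, 2350 and 2099 in myoblasts, and its log2 change was −1.69 (SE 0.05, adjusted p = 1.1e-20 in edgeR). It was thus well counted in both groups and lower in myotubes. Toward higher coordinates the next protein-coding genes after Cdkn2b, namely Dmrta1, Zfp352, Elavl2 and Izumo3, were at 0 in all libraries, so that 5 genes in a row above Cdkn2a had no count. Tusc1, 4039.5 kb from Cdkn2a, was the first with counts, 39 in the myotube group and 135 in the myoblast group. Zfp352, Izumo3 and Tusc1 were named after their values were seen.

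**Figure D3:**
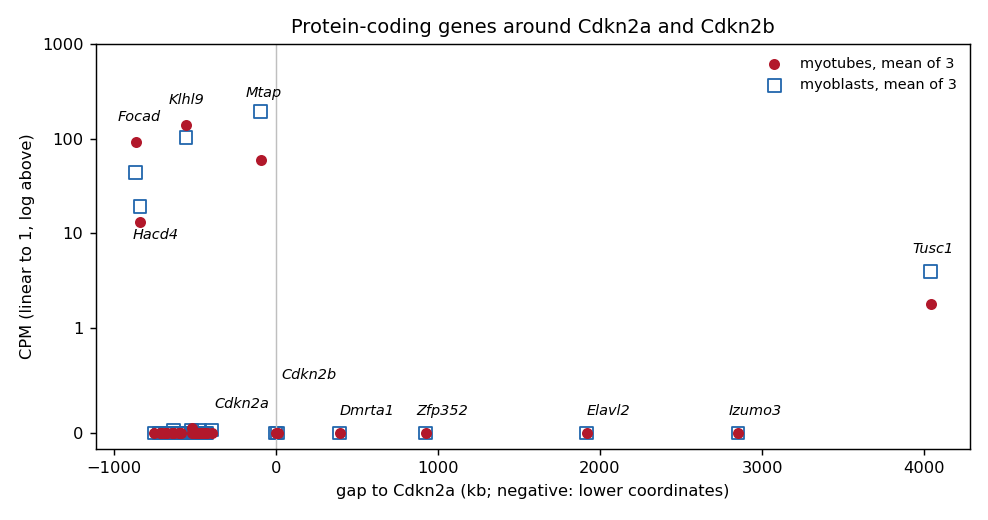
Mean CPM (linear to 1, log above) of the 43 protein-coding genes of the table between Focad and Tusc1 against their gap to Cdkn2a in kb, myotubes as red points and myoblasts as blue squares. Mtap, Klhl9, Focad and Hacd4 on the lower side and Tusc1 on the far upper side have means above 1 CPM in both groups. Ifna13, Gm13271, Gm13288 and Ifne have at most 1 count per group, and Cdkn2a and its next 5 neighbours above lie at 0.

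On the lower side, Klhl9, a substrate adaptor of a ubiquitin ligase, had 138 ± 7.16 CPM in myotubes and 103 ± 3.71 CPM in myoblasts (log2 change 0.43). Focad, a focal adhesion protein gene, had 91.2 ± 3.51 CPM in myotubes and 43.9 ± 3.80 CPM in myoblasts (log2 change 1.05). In the whole stretch from Focad to Tusc1, 34 of the 43 protein-coding genes of the table were at 0 in every library, among them most of the type I interferon genes. Counts cannot tell a silent gene from a lost one, and the DNA at this locus was not tested. Cdkn2c, which lies on the same chromosome beyond Tusc1, was counted in all libraries.

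Cdkn3 codes for a dual-specificity phosphatase that removes the activating phosphate from CDKs, and in human cells its level is known to follow the cell cycle. It lies on chromosome 14 at 46760461 to 46771530 (forward strand, Entrez gene 72391). The 250 bases before the start in the RefSeq promoter table are shown because it is the member that fell most. That start lies inside the gene span given above, so the window overlaps the first bases of the span.
Cdkn3, chr14:46760291-46760540, forward strand: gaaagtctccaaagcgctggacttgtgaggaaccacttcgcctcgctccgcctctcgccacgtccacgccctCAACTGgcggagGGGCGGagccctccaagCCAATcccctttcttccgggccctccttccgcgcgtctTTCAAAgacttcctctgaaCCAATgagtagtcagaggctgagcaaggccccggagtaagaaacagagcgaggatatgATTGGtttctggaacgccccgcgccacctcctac
Capitals mark an E-box at −178, a GC box at −166 and CCAAT boxes (CCAAT) at −149, −92 and −34, the last as its reverse complement ATTGG. Those at −111 mark the reverse complement of TTTGAA, the letters of the cell cycle homology region. CCAAT was in 37.4% of all windows and TTTGAA in 17.9%. Among the members' 10 windows, which cover 7 of the 8 genes, TTTGAA was found in those of Cdkn3 and Cdkn2b.

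Cdkn3 had 6, 9 and 4 counts in myotubes, against 117, 131 and 102 in myoblasts. In CPM these were 0.856, 1.22 and 0.505 in myotubes, against 10.5, 10.6 and 9.61 in myoblasts. All 3 myotube libraries were near the limit of detection and far below the myoblast libraries. The level fell to 8.41% of that in myoblasts (log2 change −3.57, SE 0.24, adjusted p = 5.49e-13 in edgeR). With 19 counts in the myotube group, the ratio of summed scaled counts was 0.0828, with an exact 95% counting interval of 0.0493 to 0.131.

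Set in order per length, Cdkn1a led in both groups, with 558 ± 7.12 RPKM in myotubes and 58.7 ± 0.945 RPKM in myoblasts (SD, n = 3 each). Cdkn2d followed with 28.0 ± 3.35 RPKM in myotubes and 24.0 ± 0.344 RPKM in myoblasts. Cdkn1b had 25.0 ± 1.73 RPKM in myotubes and 18.7 ± 0.406 RPKM in myoblasts. In myotubes the ranges of Cdkn2d and Cdkn1b overlapped, as did those of Cdkn1b and Cdkn1c. Cdkn1c was the fourth in myotubes with 22.2 ± 2.60 RPKM, and in myoblasts, with 1.82 ± 0.259 RPKM, the lowest of the 6. Cdkn2c had 7.11 ± 0.462 RPKM in myotubes and 9.03 ± 0.216 RPKM in myoblasts. Cdkn3 had 0.363 ± 0.150 RPKM in myotubes, the lowest of the 6 there, and 4.33 ± 0.239 RPKM in myoblasts. No neighbours in the myoblast order overlapped.

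The kinases and cyclins that these inhibitors bind mostly fell. Of 12 CDK and cyclin genes, 9 fell and 2 rose, against 39.2% and 40.2% of all genes tested. The median log2 change of the 12 was −1.93, where the median over all genes tested was 0.02. Cdk4, the D-type cyclin partner that INK4 proteins bind, had 168 ± 7.99 CPM in myotubes and 443 ± 6.43 CPM in myoblasts (SD, n = 3 each; log2 change −1.40). Cdk6, its close relative, had 22.0 ± 1.90 CPM in myotubes and 36.3 ± 1.91 CPM in myoblasts (log2 change −0.73). Cdk1, the mitotic kinase, fell by 2.84 on the log2 scale, to 33.5 ± 1.15 CPM in myotubes, against 239 ± 3.26 CPM in myoblasts. Cdk2, the main target of CIP/KIP proteins, was not called and its groups overlapped. It had 85.6, 84.7 and 72.0 CPM in myotubes, against 85.4, 77.7 and 74.7 CPM in myoblasts (log2 change 0.02, SE 0.06, adjusted p = 0.737 in edgeR), and its sign changed with the scaling.

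The D-type cyclins, which bring growth signals to Cdk4 and Cdk6, moved apart. Ccnd3 rose by 1.79 on the log2 scale, to 502 ± 17.3 CPM in myotubes, against 145 ± 1.97 CPM in myoblasts. Ccnd2 rose by 0.84, to 108 ± 12.9 CPM in myotubes, against 60.1 ± 2.31 CPM in myoblasts. Ccnd1 fell by 2.24, to 67.3 ± 4.78 CPM in myotubes, against 317 ± 12.2 CPM in myoblasts. Per length, Ccnd3 supplied 68.9 ± 1.06% of the D-type cyclin sum in myotubes and 18.3 ± 0.476% in myoblasts, while Ccnd1 supplied 17.2 ± 0.942% in myotubes and 74.6 ± 0.491% in myoblasts. With longest-transcript lengths the Ccnd3 share was 78.8% in myotubes and 28.5% in myoblasts. The cyclins of S phase and mitosis fell, Ccne1 by 1.62, Ccne2 by 3.06, Ccna2 by 3.96 and Ccnb1 by 4.01 on the log2 scale.

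**Figure D4:**
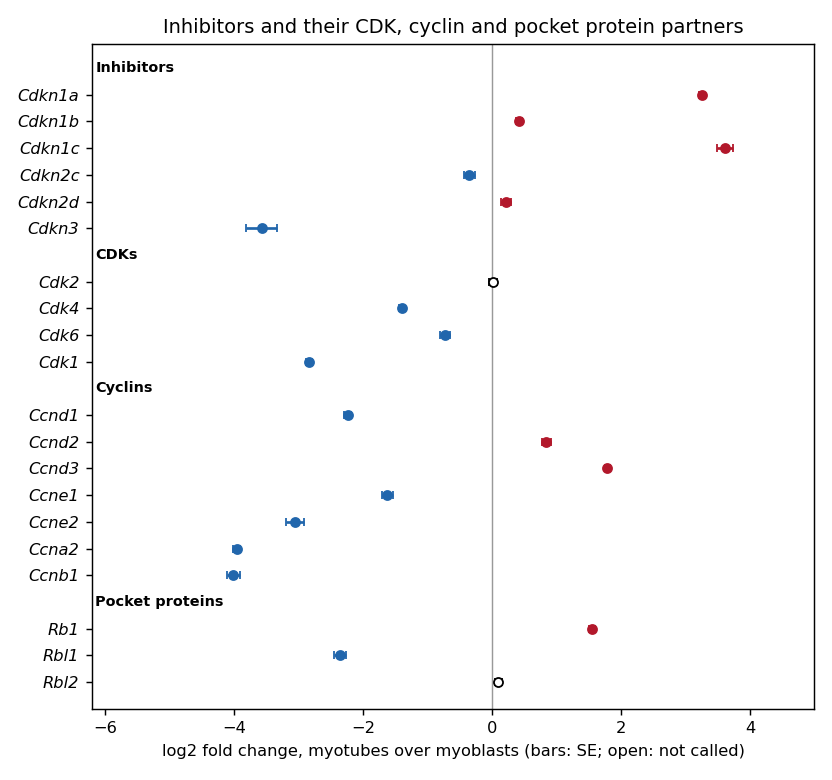
Log2 fold change of myotubes over myoblasts (bars: SE; filled points called, open points not) for the 6 tested inhibitors, their CDK and cyclin partners and the pocket proteins. Cdkn1a and Cdkn1c lie above 3, Ccna2 and Ccnb1 near −4, and Cdk2 and Rbl2 are open points near 0.

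Set against these partners, the summed CIP/KIP level changed more than the INK4 level. CIP/KIP genes summed to 8.64, 9.21 and 9.55 times the summed RPKM of Cdk2, Cdk4 and Cdk6 in the myotube libraries, against 0.533, 0.521 and 0.514 times in the myoblast libraries. Relative to the 3 D-type cyclins the ratio was 7.30 ± 0.241 in myotubes and 0.880 ± 0.0300 in myoblasts (SD, n = 3 each). The 2 detected INK4 genes stood at 0.658 ± 0.0426 of the sum of Cdk4 and Cdk6 in myotubes and 0.238 ± 0.00508 in myoblasts. With longest-transcript lengths these ratios were 9.24, 6.07 and 0.461 in myotubes, against 0.497, 0.919 and 0.166 in myoblasts. They compare RNA per length, not protein.

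Genes that switch CDKs on or off by phosphorylation were also lower for the most part. Of 8 tested, 5 fell and 2 rose, against 39.2% and 40.2% of all genes tested. The median log2 change of the 8 was −1.29, and with scaling by total counts 5 fell and 1 rose. Cdc25c, a phosphatase that activates Cdk1, fell by 3.44 on the log2 scale, and Pkmyt1, a kinase that inhibits Cdk1, fell by 2.72. Members of opposite action were thus lower together. Mnat1, the assembly factor of the CDK-activating kinase, rose by 0.85, to 74.9 ± 2.72 CPM in myotubes, against 41.7 ± 2.22 CPM in myoblasts.

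Of the pocket proteins, through which these inhibitors act on E2F genes, 1 rose, 1 fell and 1 was not called. Rb1 had 168, 187 and 188 CPM in myotubes, against 59.3, 62.2 and 63.9 CPM in myoblasts (log2 change 1.55, SE 0.05, adjusted p = 3.1e-19 in edgeR). Rbl1, the p107 gene, had 9.56, 13.5 and 14.4 CPM in myotubes, against 62.5, 64.9 and 66.5 CPM in myoblasts (log2 change −2.36, SE 0.09). Rbl2, the p130 gene known from resting cells, had 91.3 ± 3.62 CPM in myotubes and 85.4 ± 1.75 CPM in myoblasts (log2 change 0.10, SE 0.05, adjusted p = 0.0929 in edgeR). It was called without myotube library 3 (log2 change 0.12, adjusted p = 0.0395), and its adjusted p ranged from 0.0395 to 0.462 over 13 alternatives.

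The list of ubiquitin ligase parts tied to the turnover of CIP/KIP proteins moved in both directions. Of 13 tested, 6 fell and 5 rose, near the shares of all genes tested (39.2% fell and 40.2% rose), with a median log2 change of −0.03. With scaling by total counts 8 fell and 4 rose, where 5935 and 4269 of all 12800 genes did. Skp2, the F-box protein that recognises p27Kip1 and p21Cip1, had 24.5 ± 1.11 CPM in myotubes and 58.0 ± 2.06 CPM in myoblasts (log2 change −1.24, SE 0.07, adjusted p = 2.07e-14 in edgeR). Its cofactor Cks1b fell by 2.63 on the log2 scale, to 16.2 ± 1.55 CPM in myotubes, against 100.3 ± 3.06 CPM in myoblasts. Dtl, the receptor that brings PCNA-bound p21Cip1 to its ligase, fell by 2.50, and Cdc20, an activator of the anaphase-promoting complex, by 4.06. Ubac1, a subunit of the ligase that degrades p27Kip1 in the cytoplasm, rose by 1.24, to 143 ± 1.90 CPM in myotubes, against 60.6 ± 0.640 CPM in myoblasts. Skp2, Dtl and Cdc20 were thus lower, and Ubac1 was higher. The other ligase parts that rose were Skp1a, Cul1, Cul4a and Rnf123, with log2 changes of 0.58, 0.18, 0.73 and 1.05, of which Cul1 was not called when scaled by total counts. These 4 were named with their values known, as were Cul4b and Fzr1, which fell with log2 changes of −0.81 and −1.18.

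Cdkn1a is the best known target of p53, and other p53 targets were examined beside it. Of 22 tested, 17 rose and 3 fell, where 40.2% of all genes tested rose and 39.2% fell. The median log2 change of the 22 was 0.77. Against a change of more than 2-fold, 7 of them rose, beside 12.4% of all genes. Scaled by total counts, 15 rose and 5 fell, where 4269 and 5935 of all 12800 genes did. Gadd45a, a stress sensor that binds PCNA, had 343 ± 37.9 CPM in myotubes and 25.8 ± 2.04 CPM in myoblasts (log2 change 3.73). Eda2r, a receptor of the tumour necrosis factor family, had 432 ± 12.2 CPM in myotubes and 35.9 ± 2.39 CPM in myoblasts (log2 change 3.59). Mdm2, both a target and the ligase of p53, fell by 0.24 on the log2 scale, to 103 ± 1.75 CPM in myotubes, against 122 ± 2.92 CPM in myoblasts (adjusted p = 4.35e-05 in edgeR). Plk3 fell by 1.02, and Bax, named with its values known, had a log2 change of −0.74. Many of these genes also answer to other factors, and p53 protein was not measured.

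Among 25 tested regulators of the inhibitors' transcription, 15 fell and 8 rose, against 39.2% and 40.2% of all genes tested. The median log2 change of the 25 was −0.23. Trp53 itself had 76.4, 72.3 and 80.2 CPM in myotubes, against 156, 160.2 and 150.4 CPM in myoblasts (log2 change −1.03, SE 0.05, adjusted p = 9.4e-16 in edgeR). Its relative Trp63 had 206, 272 and 225 counts in myotubes, against 2, 5 and 3 in myoblasts. The log2 change of Trp63 was 6.68, of uncertain size with 10 counts in the myoblast group. Trp73, named with its values known, was at 0 in all libraries.

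Myog, a myogenic factor, rose by 5.63 on the log2 scale, to 1530 ± 106 CPM in myotubes, against 30.8 ± 4.73 CPM in myoblasts. Myod1, a myogenic factor known to induce Cdkn1a, had 169 ± 6.12 CPM in myotubes and 188 ± 4.59 CPM in myoblasts (log2 change −0.16, SE 0.04, adjusted p = 0.00176 in edgeR). The rise of Cdkn1a thus stood beside a slightly lower Myod1 level and a much higher Myog level. Foxm1 and Mybl2, activators of cell cycle genes that bind with the MuvB complex, had log2 changes of −4.11 and −4.32. Mybl2 had 29 counts in the myotube group.

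**Figure D5:**
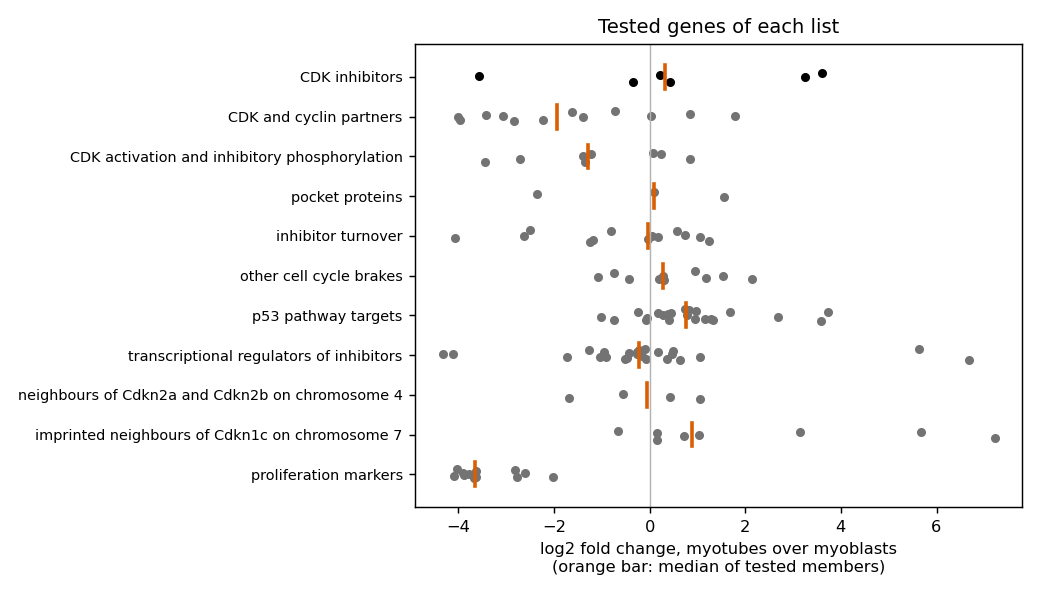
Log2 fold change of myotubes over myoblasts for each tested gene of the CDK inhibitors and of the 10 lists of related genes, with 1 point per gene and an orange bar at the median. The proliferation markers all lie below −2, most p53 pathway targets lie above 0, and the CDK inhibitors spread from −3.57 to 3.61.

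Of the other cell cycle brakes 10 of 12 were tested, of which 7 rose and 3 fell, against 40.2% and 39.2% of all genes. The median log2 change of these brakes was 0.29. Scaled by total counts, 5 rose and 3 fell. Tob1, an antiproliferative factor of the BTG family, had 135 ± 11.7 CPM in myotubes and 46.7 ± 1.87 CPM in myoblasts (log2 change 1.54). Inca1, an inhibitor of Cdk2 with cyclin A1, had 4.48 ± 1.67 CPM in myotubes and 0.989 ± 0.487 CPM in myoblasts (log2 change 2.14). Gas1, a growth arrest gene of resting fibroblasts, fell by 1.07 on the log2 scale, to 88.7 ± 6.76 CPM in myotubes, against 187 ± 3.84 CPM in myoblasts.

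Around Cdkn1c, 8 of 11 genes of the imprinted region of distal chromosome 7 were tested, of which 7 rose and 1 fell. Among all genes tested, 40.2% rose and 39.2% fell. Some rises were small, such as Nap1l4 (log2 change 0.16) and Osbpl5 (0.15), both named with their values known. The groups overlapped for Osbpl5, and its call held in 8 of 13 alternatives. Scaled by total counts, 5 rose and 1 fell. The median log2 change was 0.88, the same with Kcnq1, at 0 counts in myoblasts, set to its bound. Kcnq1ot1, the antisense RNA that silences Cdkn1c on the paternal chromosome in the mouse, had 62, 59 and 81 counts in myotubes, against 63, 72 and 52 in myoblasts. In CPM it had 9.02 ± 1.13 in myotubes and 5.47 ± 0.505 in myoblasts (log2 change 0.72, SE 0.15, adjusted p = 0.000167 in edgeR). Cdkn1c and Kcnq1ot1 were therefore both higher in myotubes, and these counts carry no information on the parental allele. Overlap of Kcnq1ot1 with other transcripts, such as Kcnq1 with 44 counts in the myotube group, was not tested. H19, a noncoding RNA from the neighbouring imprinted cluster, had 15871 ± 1136 CPM in myotubes and 1796 ± 98.6 CPM in myoblasts (log2 change 3.14). Igf2, the growth factor gene beside it, rose by 5.67 on the log2 scale, and its overlap with other transcripts of the locus was not tested. Tssc4 fell by 0.66.

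The genes with the profile most like that of each strongly changed member were found by the root mean square distance of centred log2(CPM + 1) values over the 6 libraries, among 9545 genes. Nearest to Cdkn1a were Sntb1, a syntrophin, with a distance of 0.0408, Vamp5 with 0.0503 and the receptor gene Erbb3 with 0.0701. Nearest to Cdkn1c were Trib3 with 0.102, Cdkn1a itself with 0.121 and Jsrp1, a protein of the muscle triad, with 0.128. Nearest to Cdkn3 were Tcf19 with 0.0677, Podxl with 0.103 and Cks1b with 0.107. The added 1 CPM compresses low levels, and these genes had log2 changes of −2.82 to −2.63 in edgeR, smaller than that of Cdkn3. As the 6 libraries fall in 2 groups, such distances weigh the difference between the groups most.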

How the data were processed

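Poly(A) RNA from 3 myotube and 3 myoblast samples of C2C12 cells was sequenced from stranded TruSeq libraries, per the labels' protocols. The deposited values are raw counts, made by the authors, for each Entrez gene. The tools were fastp, STAR and featureCounts with mm10, per the submitters' processing notes, and their versions and settings for strand and multiply matching reads are not given here in any source used. Counts were tested with edgeR 4.0.16 in R 4.3.3: filterByExpr (minimum count 10, minimum total 15), TMM factors of 0.949 to 0.952 in myotubes and 1.05 to 1.055 in myoblasts, the robust quasi-likelihood F test and Benjamini-Hochberg adjustment with a threshold of 0.05. The SE was taken as the size of the log2 change over the root of F. A test against 2-fold used glmTreat with a log2 threshold of 1. Replicates of a group differed by more than sampling noise, with chi-square per degree of freedom from 1.35 to 3.22. RPKM used exon lengths of GENCODE vM21, promoters came from RefSeq (GRCm38.p6), and exact counting intervals are at 95%. The fit was also tested on simulated data.

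The members, lists and tests were chosen with earlier results of these data known. Named genes are all members, a set of partners fixed by name, in each list the largest changes among genes that passed and averaged 1 CPM or more (the 2 largest in the main direction and the largest in the other), and the 3 nearest profiles of Cdkn1a, Cdkn1c and Cdkn3; others are marked. The test against 2-fold, the member ratios, the shares and the p53 motif were added after the data were seen. Of the genes listed, 1 was not found in the table under its symbol. Protein sequences were not used here.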

Additional observations from a re-analysis of the deposited data

How the results depend on the processing

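The settings tried were limma-voom (limma 3.58.1), the Wald test of DESeq2 1.42.0 and its size factors, scaling by total counts, dropping the filter or asking for 1 CPM in 3 libraries or more, a replicate block, and leaving out each library. Cdkn1a, Cdkn1b, Cdkn1c, Cdkn2c and Cdkn3 kept their calls in all 13. Over all genes, 4269 to 5541 rose and 4652 to 5935 fell. Total counts moved the median of all log2 changes by −0.15, to −0.13. They gave log2 changes of 0.07 for Cdkn2d, −0.12 for Cdk2 and −0.05 for Rbl2, 1 rise among CDK activation genes and 5 falls among p53 targets. Without a filter Cdk2 had −0.02 and CDK activation genes 1 rise. With each library left out in turn, Cdkn2d had log2 changes of 0.12 to 0.27 and Cdk2 of −0.02 to 0.10, with 1 to 2 rises each among CDK activation genes (1 without myotube library 3 or myoblast library 2) and pocket proteins (2 without myotube library 3). Same-numbered libraries did not deviate together (correlations of −0.008, 0.002 and −0.004). No pairing by number was seen, but such correlations cannot show that same-numbered libraries shared nothing. With the replicate block 5142 genes rose and 5019 fell, and 4 members rose and 2 fell. With longest-transcript lengths, RPKM in myotubes and myoblasts was 953 and 100.3 for Cdkn1a and 7.73 and 9.82 for Cdkn2c, and in myoblasts 26.5 for Cdkn2d and 5.25 for Cdkn3; the ratio of INK4 genes to D-type cyclins turned its direction (0.235 in myotubes and 0.276 in myoblasts, against 0.424 and 0.367 with joined exons). The causes were not tested. Protein comparisons were not run. Depth limits what can be said of Cdkn2a and Cdkn2b, at 0 counts, of Cdkn3 in myotubes, with 19 counts, and of Cdkn1c in myoblasts, with 126 counts.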
